A study of Mus musculus with 6 samples.

Results

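Troponin is the calcium switch of the thin filament, and the 8 troponin genes described here encode all forms of its 3 subunits: Tnnt1, Tnnt2 and Tnnt3 for troponin T, Tnni1, Tnni2 and Tnni3 for troponin I, and Tnnc1 and Tnnc2 for troponin C. They were taken by symbol from 19938 genes that the probe sets name singly on an Affymetrix mouse gene array. Each of the 8 had 1 probe set, and all 8 passed the filter on dim signal, as did 13632 genes in all. The RNA came from cardiomyocytes of mouse embryonic hearts at E12.5, with 3 arrays from Yap HET and 3 from Yap KO embryos. Both groups carried TNTCre, a Cre recombinase under a cardiac troponin T promoter, a floxed Yap allele and the R26 mTmG reporter, and differed in whether Yap was lost from 1 allele (HET) or knocked out (KO). Hearts were digested one by one and green cells were sorted, so a cell entered the sample through a reporter switched on by a promoter of 1 of the genes described here. The comparison has no group with wild-type Yap, and the sources used here do not say which embryos were littermates. The replicates are called biological in the design text of the series.

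In the contracting filament, troponin C binds calcium, troponin I holds back the interaction of actin and myosin until calcium is bound, and troponin T ties the complex to tropomyosin. The genes divide by fibre type. Tnnt2 and Tnni3 are the cardiac forms, Tnnc1 serves cardiac and slow skeletal muscle, Tnnt1 and Tnni1 are the slow skeletal forms, and Tnnt3, Tnni2 and Tnnc2 are the fast skeletal forms. The embryonic heart is known to use Tnni1 as its main troponin I and to replace it by Tnni3 around and after birth. Yap is a coactivator of the TEAD transcription factors, whose classical binding sequence, the M-CAT motif, was described in cardiac troponin T promoters.

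Sequences upstream of the transcription start were taken from RefSeq (GRCm38.p6), whose table matched 6 of the 8 genes. Shown here are the 250 bases before the start of Tnnt1, the member with the largest change, and of Tnnt2 and Tnnc1, the members whose window held an M-CAT motif, each 5′ to 3′ on the strand of the gene. The Tnnt1 window is chr7:4515976-4516225 on the minus strand, the Tnnt2 window chr1:135836084-135836333 on the plus strand, and the Tnnc1 window chr14:31208062-31208311 on the plus strand. Capitals mark matches, on either strand, to M-CAT (CATTCC), to the GATA core (GATAA) or to the TATA box (TATAAA).
Tnnt1 upstream: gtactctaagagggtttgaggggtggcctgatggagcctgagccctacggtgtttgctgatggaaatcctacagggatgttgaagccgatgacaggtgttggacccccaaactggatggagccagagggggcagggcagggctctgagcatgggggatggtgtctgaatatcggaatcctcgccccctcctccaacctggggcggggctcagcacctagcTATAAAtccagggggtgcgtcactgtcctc
Tnnt2 upstream: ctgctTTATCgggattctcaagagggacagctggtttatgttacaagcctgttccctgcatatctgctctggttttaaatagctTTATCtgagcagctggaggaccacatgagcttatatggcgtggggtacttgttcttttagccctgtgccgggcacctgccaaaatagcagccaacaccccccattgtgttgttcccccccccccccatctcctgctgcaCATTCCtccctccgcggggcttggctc
Tnnc1 upstream: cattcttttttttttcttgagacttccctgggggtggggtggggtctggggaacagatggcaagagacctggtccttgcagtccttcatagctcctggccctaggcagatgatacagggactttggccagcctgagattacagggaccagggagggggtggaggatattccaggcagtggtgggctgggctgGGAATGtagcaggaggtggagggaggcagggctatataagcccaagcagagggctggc
An M-CAT match lay 27 to 22 bases before the start of Tnnt2 and 58 to 53 bases before that of Tnnc1, where the matched letters are those of the opposite strand. The letters were not found in the windows of Tnnt1, Tnni1, Tnni3 and Tnnc2, or in the window of the second start listed for Tnnt2. Of 32851 windows of this length in the table, 12.6% held an M-CAT match. The first Tnnt2 window also held 2 GATAA matches, a sequence in 22.6% of all windows, and the Tnnt1 window held a TATAAA match 30 to 25 bases before the start, a sequence in 12.4%. E-boxes (CANNTG), which are not in capitals and overlapped none of the other matches, were in the windows of all 6 genes and in 66.2% of windows overall. The CArG box and the MEF2 site, searched by name on both strands, were in 0 of the 8 windows of these genes, and in 1.47% and 2.92% of all windows. These are matches of letters and carry no measurement of binding.

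Values are deposited probe set intensities on a linear scale, and changes are log2 differences (Yap KO minus Yap HET) given as the estimate ± its standard error (SE). The p-values are those of limma, adjusted by Benjamini-Hochberg over 13632 genes and called at 0.05. Probe sets bind their targets with unequal efficiency, so an intensity is read between groups for 1 gene and does not rank genes by amount of transcript. The sorted cells are bulk samples, in which fewer cells of a type and less RNA per cell cannot be told apart. The labels held for Yap1, which read between 871 and 927 in Yap HET and between 84.7 and 103 in Yap KO. All 10 cardiomyocyte markers, Myh6, Actc1 and Ryr2 among them, were above the filter level, and their sum lay between 65802 and 66879 in Yap HET and between 65819 and 68529 in Yap KO. Nppa alone among them passed the test (0.19 ± 0.05, limma adjusted p = 0.049). Markers of other cells were present as well and are described at the end.

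Of the 8 troponin genes, Tnnt1 and Tnni2 fell in Yap KO cells, 0 rose, and the other 6 did not pass the test. The count of 2 lower genes stands beside 4.76% of all genes tested that were lower, and 9.93% that changed in either direction. At an unadjusted limma p under 0.05, 3 troponin genes were lower and 0 were higher, where 14.4% of all genes tested were lower and 13.9% higher. The median change of the 8 was -0.08, against -0.02 over all genes tested. Values of the 2 groups did not overlap for Tnnt1, Tnni2 and Tnni1, as for 33.9% of all genes tested. The smallest changes were those of the forms used by cardiac muscle, between -0.03 and 0.01 for Tnnt2, Tnni3 and Tnnc1.

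**Figure D1:**
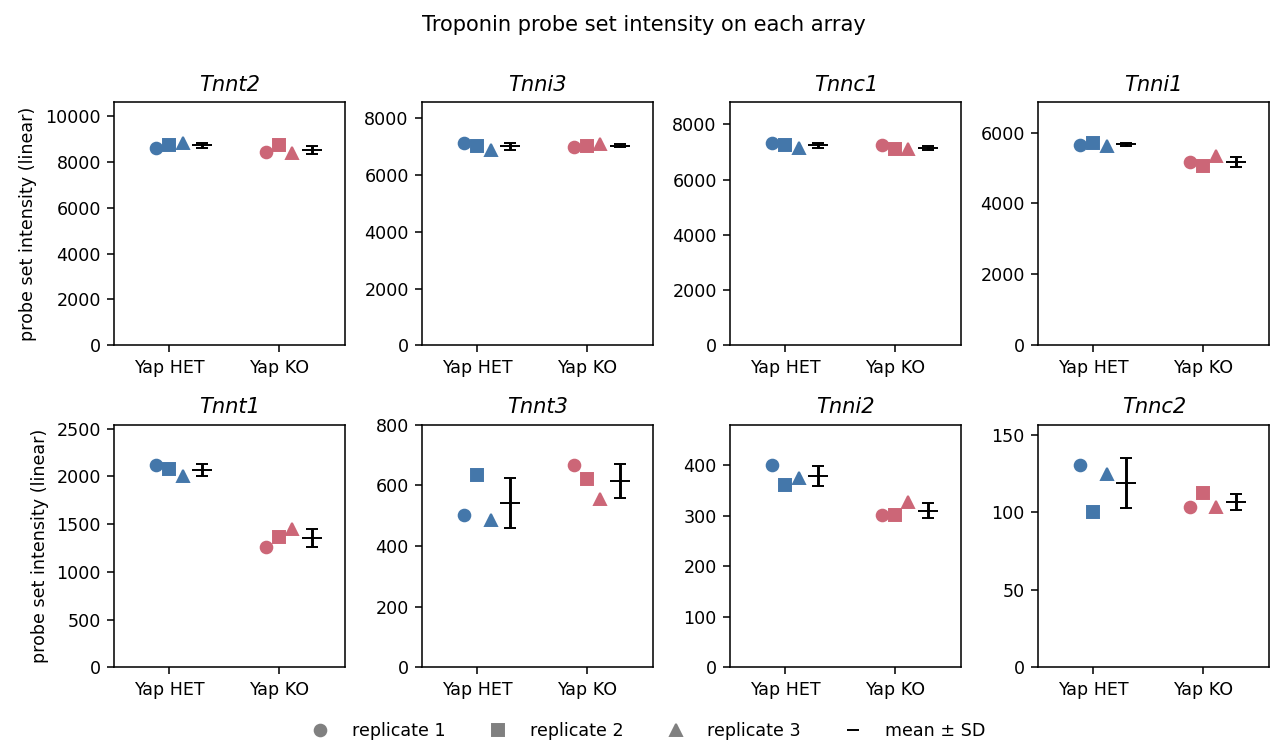
Probe set intensity (linear, each axis starting at 0) of the 8 troponin genes on the 3 Yap HET and the 3 Yap KO arrays; points are arrays, with shapes for replicate numbers, and bars are the mean ± SD. Tnnt1 lies between 2002 and 2120 in Yap HET and between 1263 and 1454 in Yap KO, while the groups overlap for Tnnt2, Tnni3, Tnnc1, Tnnt3 and Tnnc2.

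Tnnt1, the slow skeletal troponin T, changed the most. It read 2120, 2078 and 2002 in Yap HET and 1263, 1362 and 1454 in Yap KO. Every Yap KO array was below every Yap HET array, and the gap between the groups was wider than the range within either. The means were 2067 ± 59.9 (SD, n = 3) and 1360 ± 95.6 (SD, n = 3), a 1.52-fold lower level with a log2 change of -0.61 ± 0.06 (SE, limma adjusted p = 0.0027). The 95% interval of the change ran from -0.75 to -0.46. The call held under each of the 16 alternative settings, with changes from -0.66 to -0.54 and adjusted p-values up to 0.044.

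Tnnt2, the cardiac troponin T, read 8605, 8745 and 8827 in Yap HET and 8441, 8733 and 8405 in Yap KO. Yap KO replicate 2 lay within the range of the Yap HET arrays and the other Yap KO arrays just under it. Its change was -0.03 ± 0.05 (limma adjusted p = 0.69), and the interval from -0.14 to 0.08 bounds what these arrays allow in either direction. Tnnt3, the fast skeletal troponin T, read 503, 635 and 484 in Yap HET and 667, 622 and 555 in Yap KO. Yap HET replicate 2 was higher than 2 of the Yap KO arrays, so the groups overlapped. The change of Tnnt3 was 0.19 ± 0.11 (limma adjusted p = 0.30), with an interval from -0.07 to 0.45 that is the widest of the 8. Tnnt3 passed the test as higher in 1 of the 16 alternatives, array weights (0.26, limma adjusted p = 0.028), a setting that called 33.9% of all genes. Without Yap HET replicate 2 it missed the threshold (0.31, limma adjusted p = 0.057). The troponin T genes thus gave point estimates on both sides of 0, with a fall past the test in Tnnt1.

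Tnni1, the slow skeletal troponin I that predominates in the embryonic heart, read 5655, 5709 and 5626 in Yap HET and 5158, 5044 and 5328 in Yap KO. The groups did not overlap, with means of 5663 ± 42.1 (SD, n = 3) and 5177 ± 143 (SD, n = 3). The change was small, -0.13 ± 0.05 with an interval from -0.24 to -0.02, and missed the threshold over all genes (limma adjusted p = 0.13). It passed with a trended and robust prior (adjusted p = 0.0069) and with array weights (adjusted p = 0.024), settings that called 16.5% and 33.9% of all genes, and its adjusted p-values over the 16 alternatives ran from 0.0069 to 0.59.

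Tnni2, the fast skeletal troponin I, read 401, 360 and 376 in Yap HET and 302, 302 and 328 in Yap KO. The highest Yap KO array stayed below the lowest Yap HET array. The mean went from 379 ± 20.4 (SD, n = 3) to 311 ± 15.0 (SD, n = 3), a 1.22-fold lower level and a change of -0.29 ± 0.06 (limma adjusted p = 0.029). The call of Tnni2 ended when replicate 1 (adjusted p = 0.11) or 3 (0.068) of Yap HET or replicate 1 (0.070) or 2 (0.12) of Yap KO was left out. It also ended without a filter (0.080), with median centring (0.080), with a replicate block (0.067) or in an unmoderated linear model (0.098). The change stayed negative in all 16 alternatives, from -0.36 to -0.23. Tnni3, the cardiac troponin I, read 7133, 7014 and 6872 in Yap HET and 6987, 7028 and 7098 in Yap KO. All Yap KO arrays lay inside the Yap HET range. The change of Tnni3 was 0.01 ± 0.05 (limma adjusted p = 0.94), with an interval from -0.10 to 0.11.

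Tnnc1, the troponin C of cardiac and slow muscle, read 7327, 7253 and 7152 in Yap HET and 7233, 7094 and 7093 in Yap KO. The groups overlapped, and the change was -0.02 ± 0.05 (limma adjusted p = 0.80) with an interval from -0.13 to 0.09. Tnnc2, the fast skeletal troponin C, was the dimmest member, with 131, 100.3 and 125 in Yap HET and 104, 113 and 104 in Yap KO. Its mean over the arrays was 1.31 times the filter level of 85.7, so its signal was close to what was treated as dim. Yap HET replicate 2 was the lowest array and the other Yap HET arrays were the highest. The change of Tnnc2 was -0.15 ± 0.10 (limma adjusted p = 0.37), and it passed the test without Yap HET replicate 2 (-0.26, adjusted p = 0.045) and with array weights (-0.25, adjusted p = 0.029).

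**Figure D2:**
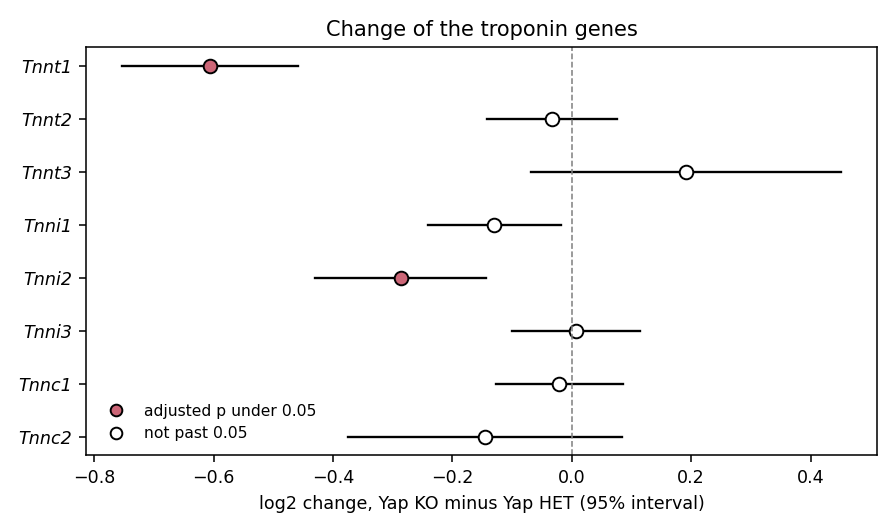
Log2 change (Yap KO minus Yap HET) of each troponin gene with its 95% interval from limma; filled points passed an adjusted p of 0.05. Tnnt1 at -0.61 and Tnni2 at -0.29 are filled, and the intervals of Tnnt2, Tnni3 and Tnnc1 lie within 0.15 of 0.

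The log2 ratio of 2 forms of a subunit on the same array cancels whatever scales the whole array, though it is not a ratio of molecules. For troponin T, Tnnt1/Tnnt2 was -2.02, -2.07 and -2.14 in Yap HET and -2.74, -2.68 and -2.53 in Yap KO. The groups were clear of each other, and the mean change was -0.57. For troponin I, Tnni1/Tnni3 was -0.33, -0.30 and -0.29 in Yap HET and -0.44, -0.48 and -0.41 in Yap KO, a change of -0.14. The ratio of Tnni2/Tnni3 changed by -0.29, again with no overlap between groups. In these 3 ratios the form of slow or fast skeletal muscle was lower relative to the cardiac form in every Yap KO array than in any Yap HET array. The other 2 ratios overlapped between groups, with changes of 0.22 for Tnnt3/Tnnt2 and -0.12 for Tnnc2/Tnnc1. Two-sided exact permutation tests over the arrays gave p = 0.1 for the first 3 ratios, the smallest that 3 arrays against 3 allow, and 0.3 and 0.4 for the others, with Benjamini-Hochberg adjusted values over the 5 ratios of 0.17, 0.38 and 0.40. The design therefore cannot bring a ratio below 0.05 by this test.

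**Figure D3:**
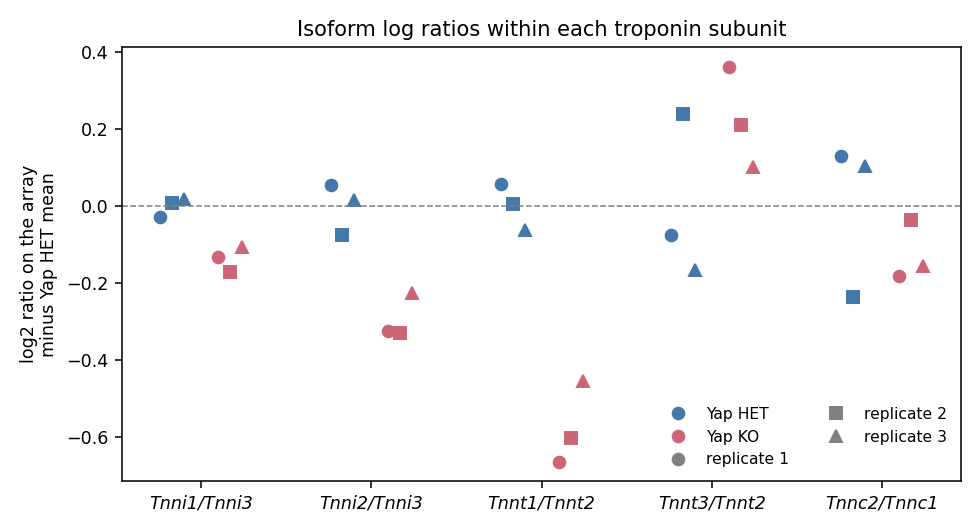
Log2 ratio of a skeletal to a cardiac (or, for troponin C, cardiac and slow) form on each array, less the mean of the Yap HET arrays, for the 5 ratios within a subunit; points are arrays. Tnnt1/Tnnt2 drops by 0.57 on average, Tnni2/Tnni3 by 0.29 and Tnni1/Tnni3 by 0.14, while the groups overlap for Tnnt3/Tnnt2 and Tnnc2/Tnnc1.

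Troponin I and troponin T genes lie side by side in the genome, a layout known from their ancestry. In the RefSeq table Tnnt1 and Tnni3 were direct neighbours on chromosome 7, Tnni2 and Tnnt3 had Lsp1 between them on the same chromosome, and Tnni1 and Tnnt2 had Lad1 between them on chromosome 1. Members of a pair differed in their changes. The log2 ratio Tnnt1/Tnni3 went from -1.76 ± 0.02 (SD, n = 3) to -2.37 ± 0.09 (SD, n = 3). For Tnni2/Tnnt3 it went from -0.50 ± 0.27 to -0.98 ± 0.20, and for Tnni1/Tnnt2 from -0.62 ± 0.02 to -0.72 ± 0.07. These pairs were set up after the values were seen and were not tested. Lsp1, a gene of an actin-binding protein of leukocytes that sits between Tnni2 and Tnnt3, rose by 0.33 ± 0.08 (limma adjusted p = 0.041), so a gene that rose lay beside a troponin gene that fell. The call of Lsp1 was kept in 1 of 6 fits that left out an array, the one without Yap HET replicate 2, with adjusted p-values up to 0.13. Ppp1r12c, on the other side of Tnnt1, missed the threshold at -0.22 ± 0.07 (limma adjusted p = 0.088). Sema3g, a semaphorin gene next to Tnnc1, fell by 0.31 ± 0.07 (limma adjusted p = 0.033), a call kept in 1 of 6 such fits, the one without Yap KO replicate 1, with adjusted p-values up to 0.13. The remaining genes next to a troponin gene did not pass the test.

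Genes with an array profile most like Tnnt1 were sought by the root mean square difference of mean-centred log2 values over the 6 arrays. Cdc6, a replication licensing gene, was nearest (0.037 log2 units), followed by S1pr2, a sphingosine-1-phosphate receptor gene (0.056), and Grk5, a G protein-coupled receptor kinase gene (0.060). The median difference between Tnnt1 and all genes considered was 0.31. Cdc6, S1pr2 and Grk5 fell by 0.56 ± 0.06, 0.58 ± 0.05 and 0.70 ± 0.07, sizes that follow from how these genes were chosen. They kept their calls whichever array was left out, as Tnnt1 did. Nearest to Tnni2 were the histone genes H4c14 (0.025) and H2ac8 (0.028) and the histone methyltransferase gene Setd1b (0.033), against a median of 0.17. Chosen in the same way, they changed by -0.24 ± 0.06, -0.24 ± 0.06 and -0.25 ± 0.06. Of 6 fits that left out an array, the calls of H4c14 and H2ac8 held in 1 each and that of Setd1b in 2. Histone genes have near-identical copies, so their values are uncertain.

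Changes in the other genes of the thin filament were small. Of 19 tested thin filament genes, which include actins, tropomyosins, tropomodulins and leiomodins, 0 passed the limma test. At an unadjusted p under 0.05, 4 stood higher and 2 lower (13.9% and 14.4% of all genes tested), and the groups were without overlap for 10 of the 19, against 33.9% of all genes tested. Their median change was 0.01. Tpm1, the main cardiac tropomyosin, to which troponin T binds, had a change of 0.01 ± 0.05, and Actc1, the cardiac actin, one of 0.03 ± 0.05. The smallest p-values belonged to Nrap, a gene of an anchoring protein of thin filaments (0.25 ± 0.07, limma adjusted p = 0.071), and Ankrd1, a titin-associated and Yap-responsive gene (0.20 ± 0.06, limma adjusted p = 0.091). The changes of the list lay between -0.24 and 0.25, so the fall of Tnnt1 was larger in size than that of any of these 19 genes.

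Among 14 thick filament genes, 1 rose and 1 fell, where 9.93% of all genes tested changed, with a median change of 0.02. The M-band gene Myom2 rose from 132 ± 12.7 to 195 ± 25.1 (0.56 ± 0.11, limma adjusted p = 0.020), and the slow myosin gene Myh7b fell from 601 ± 26.3 to 388 ± 107.5 (-0.66 ± 0.17, limma adjusted p = 0.045). Myom2 lost its call when replicate 3 of Yap HET or replicate 2 or 3 of Yap KO was left out (adjusted p up to 0.071), and Myh7b lost it without any array except Yap KO replicate 1 (up to 0.15). The list then had between 0 and 2 calls. The cardiac myosin genes Myh6 (0.04 ± 0.06) and Myh7 (0.01 ± 0.05) and the light chain genes Myl2 (-0.01 ± 0.05) and Myl7 (0.02 ± 0.05) were, like the cardiac troponins, close to 0.

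Troponin I and T are controlled by phosphorylation, and 3 of 17 tested genes of kinases and phosphatases known to act on them or to bind them rose while 0 fell, against 5.16% of all genes tested that were higher. Pak3, a p21-activated kinase gene, rose from 127 ± 14.2 to 191 ± 16.2 (0.58 ± 0.09, limma adjusted p = 0.011). The protein kinase C genes Prkce (0.33 ± 0.07, limma adjusted p = 0.031) and Prkcb (0.36 ± 0.09, limma adjusted p = 0.043) rose as well. The 3 rises became 1, Pak3, without Yap HET replicate 1 or Yap HET replicate 3, with adjusted p-values up to 0.14 for Prkcb and 0.11 for Prkce, and Pak3 kept its call in all 6 fits. Prkce lost its call also without Yap KO replicate 1 or 2, and Prkcb without Yap KO replicate 1 or 3. Stk4, the MST1 kinase of the Hippo pathway that can phosphorylate cardiac troponin I, had a change of 0.01 ± 0.06 (limma adjusted p = 0.92). Tnni3k, a kinase gene named for binding cardiac troponin I and singled out after its values were seen, read 691, 1189 and 591 in Yap HET and 732, 252 and 264 in Yap KO. Yap KO replicate 1 lay among the Yap HET arrays and the other Yap KO arrays well under them, and the change was -1.11 ± 0.42 (limma adjusted p = 0.13). Without Yap KO replicate 1 Tnni3k passed the test, with a change of -1.61 (limma adjusted p = 0.022), and in the other 5 such fits the adjusted p lay between 0.16 and 0.34. The median change of the list was 0.02.

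Tnnt2 and the other troponin T genes are spliced into many forms, which a single probe set for the whole gene does not resolve. Of 12 genes of splicing regulators of troponin T, 2 fell and 0 rose, where 4.76% of all genes tested were lower. Mbnl3 fell from 579 ± 30.6 to 383 ± 33.3 (-0.60 ± 0.08, limma adjusted p = 0.0045) and Mbnl1 from 1629 ± 70.1 to 1362 ± 61.4 (-0.26 ± 0.06, limma adjusted p = 0.033). Both encode muscleblind proteins, which are known to act on the developmental exon of cardiac troponin T. Mbnl3 kept its call whichever array was left out, and Mbnl1 kept it only without Yap HET replicate 2, reaching an adjusted p of 0.13 in the others. Mbnl2, the third member of this family, had a change of 0.02 ± 0.07, and Celf1, whose product opposes the muscleblind proteins at that exon, one of -0.01 ± 0.06. Ptbp1 (-0.16 ± 0.05, limma adjusted p = 0.088) and Rbm20 (-0.19 ± 0.07, limma adjusted p = 0.11) missed the threshold. The list's median was -0.04.

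Among 23 tested transcription factors and cofactors known at promoters of sarcomere genes, 2 fell and 0 rose, where 4.76% of all genes tested were lower: Yap1 itself, which the knockout targets, and Tead4, one of the TEAD factors (-0.62 ± 0.09, limma adjusted p = 0.0077). Tead1, the TEAD gene most tied to heart muscle, read 2617, 2534 and 2686 in Yap HET and 2895, 2886 and 2922 in Yap KO. Its change was 0.15 ± 0.05 (limma adjusted p = 0.088). Hand1 (-0.32 ± 0.09, limma adjusted p = 0.060) did not pass either, and Gata4, Gata6, Mef2a and Mef2c had changes between -0.01 and 0.05. The median of the list was -0.11, and 9 of its genes, Yap1 and Tead4 included, were lower at an unadjusted limma p under 0.05 against 1 higher (14.4% and 13.9% of all genes tested).

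**Figure D4:**
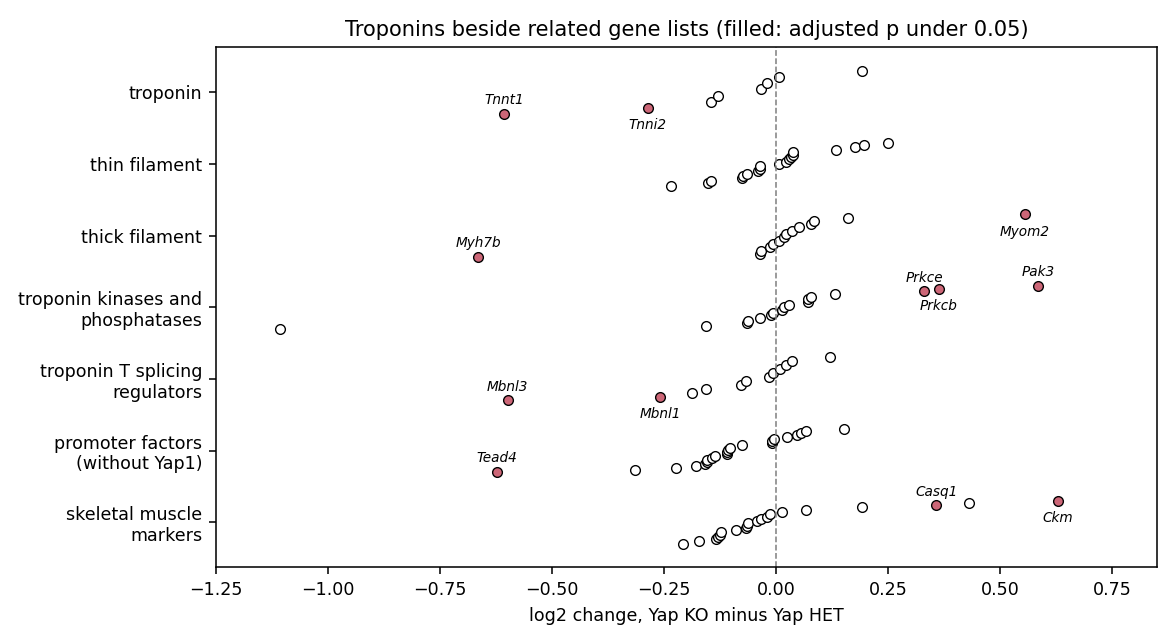
Log2 change (Yap KO minus Yap HET) of each tested gene in 7 lists, 1 point a gene; filled and named points passed an adjusted p of 0.05, and Yap1, at -3.29, is left out of the promoter factors. Tnnt1 and Tnni2 lie to the left of all 19 thin filament genes, which are between -0.24 and 0.25.

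Slow and fast skeletal troponins are also markers of skeletal muscle, so genes of that tissue were read beside them. Of 20 tested skeletal muscle genes, 2 rose and 0 fell, where 5.16% of all genes tested were higher, with a median change of -0.05. Ckm, the muscle creatine kinase gene, rose from 1568 ± 111 to 2423 ± 132 (0.63 ± 0.07, limma adjusted p = 0.0031). Casq1, a calsequestrin gene, rose from 3781 ± 60.8 to 4850 ± 345 (0.36 ± 0.06, limma adjusted p = 0.014), a call that ended without Yap HET replicate 1 (adjusted p = 0.063). Both are also expressed in the embryonic heart. The myogenic factor genes Myod1 (114 to 135 over the 6 arrays), Myf5 (87.6 to 107) and Myf6 (73.9 to 98.3) read near the filter level in both groups, and Myog read under it, at 48.3 to 61.8. The sum of the 25 skeletal muscle genes lay between 9426 and 10025 in Yap HET and between 10764 and 12001 in Yap KO. A split made after their values were seen left out Ckm and Casq1, the 2 genes that rose. A narrower gap between the groups follows from that choice. The sum of the other 23 then lay between 4232 and 4530 in Yap HET and between 3895 and 4394 in Yap KO. Of these 23, 5 had a mean under the filter level. The brightest of the 23, the myosin light chain gene Myl1, read 1652 ± 18.7 and 1441 ± 196 (limma adjusted p = 0.20). Atp2a1 read 237 ± 39.5 and 318 ± 38.6 (0.43 ± 0.13, limma adjusted p = 0.082). Atp2a1 passed the test with median centring and without Yap HET replicate 2, among other settings. The part of skeletal muscle cells in these values was not tested.

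Markers of other cells moved with the same comparison. Of 10 mesenchymal and pericyte genes 4 rose (Pdgfra, Pdgfrb, Postn and Tcf21), where 5.16% of all genes tested were higher, and their sum lay between 5246 and 5499 in Yap HET and between 6443 and 8488 in Yap KO. Without Yap KO replicate 1 the 4 became 8. The count fell to 3 without replicate 2 of Yap KO, where Postn lost its call (limma adjusted p = 0.061). It was also 3 without replicate 3 of Yap KO and without replicate 1 of Yap HET. Both of these fits ended the call of Tcf21 (limma adjusted p up to 0.061). Pdgfra and Pdgfrb kept their calls in all 6 fits that left out an array. Of the 7 epicardial genes 0 passed the limma test. At an unadjusted p under 0.05, 4 stood lower and 0 higher (14.4% and 13.9% of all genes tested). The 7 genes summed to between 3441 and 4086 in Yap HET and between 2302 and 3341 in Yap KO. Of 9 tested endothelial and endocardial genes 2 rose (Kdr and Nfatc1) and 1 fell (Npr3), where 9.93% of all genes tested changed. The sum of 10 lay between 1606 and 1738 in Yap HET and between 1863 and 1950 in Yap KO. Left out 1 array at a time, Kdr kept its call in all 6 fits, Npr3 in 5 and Nfatc1 in 1. The 4 erythroid genes summed to between 249 and 642 in Yap HET and between 373 and 2527 in Yap KO, highest on replicate 1 of each group. Without Yap KO replicate 1 the change of Tnnt1 was -0.55 and that of Tnni2 -0.27, and without Yap HET replicate 1 they were -0.59 and -0.25. The call of Tnni2 ended in both fits (limma adjusted p = 0.070 and 0.11), each of which still held the other array. Of 7 ventricular markers 3 rose and 2 fell, where 9.93% of all genes tested changed. Irx5 (1.07 ± 0.07), Kcne1 (0.49 ± 0.06) and Nppb (0.39 ± 0.08) rose, and Hey2 (-0.53 ± 0.10) and Mycn (-0.48 ± 0.06) fell. Their limma adjusted p-values lay between 0.0005 and 0.021. The 5 calls became 3, Irx5, Kcne1 and Mycn, without Yap HET replicate 1 or 3. Of 8 atrial markers Nppa rose and Nr2f1 fell, where 9.93% of all genes tested changed. Both calls ended whichever array was left out (limma adjusted p between 0.066 and 0.18). Myl2 and Myl7, defining myosin light chains of the ventricle and atrium, did not pass the test. Of 5 tested myeloid genes Lyz2 rose (0.47 ± 0.11, limma adjusted p = 0.036) and 0 fell, where 5.16% of all genes tested were higher. Its call held in 1 of 6 fits that left out an array. Cd68 missed the threshold at -0.72 ± 0.20 (limma adjusted p = 0.063), as did Ptprc at -0.17 ± 0.05 (limma adjusted p = 0.074). At an unadjusted limma p under 0.05, 3 of the 5 myeloid genes were lower and 1 was higher (14.4% and 13.9% of all genes tested). Their median change was -0.17. The sum of 8 myeloid genes overlapped between groups, from 1774.5 to 2072.7 in Yap HET and from 1836.6 to 2054.3 in Yap KO. Of 6 smooth muscle genes and 3 tested neural crest and neuronal genes 0 passed. The smooth muscle genes nearest to the threshold went in opposite directions, Cnn1 at 0.16 ± 0.05 (limma adjusted p = 0.085) and Tagln at -0.46 ± 0.17 (limma adjusted p = 0.12). In the neural crest and neuronal list Ednrb was nearest, at -0.24 ± 0.06 (limma adjusted p = 0.054). The part of these cell types in the troponin values was not tested.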

How the data were processed

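The arrays were made from 0.1 µg of total RNA, per the labels' protocols. The authors deposited 1 intensity per probe set, on a linear scale, made with RMA per the submitters' processing notes, with version and annotation not given in the sources used here. RMA gives log2 values, so a return to the linear scale is implied but not described, and log2 was taken here. Symbols came from the platform annotation, updated through Entrez identifiers (21698 of 21789 probe sets with 1 symbol matched). For each gene the brightest probe set was used, and genes under the 40th percentile of probe set means (intensity 85.7) were left out. Differences were tested with limma 3.58.1 in R 4.3.3 on groups alone and adjusted by Benjamini-Hochberg. The fit was tested on simulated data. The 8 troponin genes and all lists were chosen with earlier results of these data known. Named were the troponin genes, Yap1, up to 4 called and up to 2 other genes with the smallest p in a list, genome neighbours and 3 most similar profiles; Tpm1, Actc1, the myosin genes, Stk4, Tnni3k, Mbnl2, Celf1, the GATA and MEF2 genes and the myogenic factors fall outside that rule and were picked as reference genes after their values were seen. Hey2 was named beyond the 4 to complete the ventricular calls. The alternatives were other filters, probe set means, scalings, priors, array weights, a replicate block, an unmoderated linear model and each array left out. The number of arrays limits the precision.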

Additional observations from a re-analysis of the deposited data

How the results depend on the processing

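The change of Tnnt1 kept its direction and its call in all 16 alternatives, and the 5 isoform ratios kept their direction with quantile normalization, cyclic loess and each array left out (without an array, -0.63 to -0.53 for Tnnt1/Tnnt2). Median centring, probe set means and the replicate block by construction left these ratios as they were (-0.57 for Tnnt1/Tnnt2 with the replicate block). The count of 2 troponin genes became 1 with no filter, median centring, the replicate block or the unmoderated linear model. It was 1 to 3 without 1 array and 5 with array weights, 4 lower and 1, Tnnt3, higher. Tnni2 was the call that ended with the replicate block (adjusted p = 0.067). Signs near 0 turned for Tnnc1 (0.021 with quantile normalization, 0.040 with median centring), Tnnt2 (0.028 with median centring) and Tnni3 (-0.015 with array weights, -0.0073 without Yap HET replicate 3 and up to 0.020 without Yap HET replicate 1). Thin filament calls went from 0 to 1 with the 60th percentile filter or quantile normalization, 2 with median centring, 4 with the trended and robust prior and 6 with array weights. Thick filament calls went from 2 to 1 with the 60th percentile filter, to 0 with no filter, the replicate block or the unmoderated model, and to 0 to 2 without 1 array. Kinase and phosphatase calls went from 3 to 1 with no filter (Pak3), the 60th percentile filter (Prkce) or the unmoderated model (Rock1, with 0 of the 3 kept), 2 with the replicate block (without Prkcb), 6 with array weights (Tnni3k among them, adjusted p = 0.019), and 1 to 3 without 1 array. Splicing regulator calls went from 2 to 1 with no filter, median centring or the replicate block, 5 with the trended and robust prior, 4 with array weights, 0 in the unmoderated model, and 1 to 2 without 1 array. Promoter factor calls went from 2 to 9 with the trended and robust prior, 13 with array weights and 1 in the unmoderated model. With the 60th percentile filter they were 3, Yap1, Tead1 (higher) and Hand1 (lower), and Tead4, under that filter, was not tested. Without 1 array they numbered 2 to 3, with Tead3 added without Yap KO replicate 1. Over all genes the calls numbered 1353 in the fit reported, 508 with no filter, 4617 with array weights, 2246 with the trended and robust prior, 698 with the replicate block and 231 in the unmoderated model. They numbered 434, 689, 433 and 700 without Yap HET replicate 1, Yap HET replicate 3, Yap KO replicate 2 and Yap KO replicate 3. Median centring left 339 of 1394 calls lower, against 649 of 1353. Deviations of same-numbered arrays correlated at -0.08, -0.17 and 0.12, so the numbers were not taken as pairs. The 60th percentile filter, at an intensity of 230, took Tead4, Pak3, Prkcb and Myom2 out of the test. The causes of the other shifts were not tested. Tnnc2, at 1.31 times the filter level, is limited by signal, and the other members read 4.02 to 100.7 times that level.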
